A study of Homo sapiens with 42 samples.

Results

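The inner transition regions of the non-acrocentric autosomes are stretches of centromeric transition DNA that lie inside the centromere of chromosomes 1 to 12 and 16 to 20. They were chosen by name: every region of the table whose name starts with ct_, carries no arm label and gives 1 of these 17 chromosomes. This gave 436 members of the 2523 named regions. The table holds 856 transition regions in all. The other transition regions are 328 inner ones on the acrocentric chromosomes 13, 14, 15, 21 and 22, 49 inner ones on X and Y, and 43 outer ones that run into a chromosome arm.

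Human centromeres are built on long tandem arrays of alpha satellite, flanked by older monomeric alpha satellite and by other satellite families. Transition regions are the non-satellite DNA between and beside these arrays, where segmental duplications, transposable elements and some genes occur. Topoisomerase 2 passes one DNA duplex through a break it makes in another, and it helps to disentangle centromeres in mitosis. TOP2A is the isoform of dividing cells, and TOP2B is also found in resting cells. Both etoposide and mitoxantrone poison TOP2: the enzyme stays joined to the DNA it has cut, so that an antibody to TOP2 can pull down the cleaved site without a chemical crosslink.

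The cells were KG-1, an established line from a human myelogenous leukaemia, kept for 1 h with 100 µM etoposide, with 20 µM mitoxantrone or with vehicle, and chromatin was sonicated with no formaldehyde. From each treated or vehicle culture 3 libraries were made: DNA pulled down with a TOP2A antibody, DNA pulled down with a TOP2B antibody, and input DNA. Etoposide was tested in 4 replicas and mitoxantrone in 3, each replica with its own libraries from cells without drug, which makes 12 groups and 42 libraries. Read length was 38 bp in etoposide replica 1, 100 bp in mitoxantrone replica 1 and 50 bp in the others. Differences of etoposide replica 1 and mitoxantrone replica 1 from the others cannot be told apart from read length. The labels do not say that the replicas were separate cultures, so every p-value below measures the spread between these samples, which may be technical.

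Depth set what could be seen. The 42 libraries held 552909 to 59639786 reads each (median 9158659), of which 23900 to 3207823 were counted in a named region (median 351072). The members received 4593 to 714186 reads per library (median 85598). The least deep library was TOP2A with etoposide in etoposide replica 3, and the deepest was input without drug in mitoxantrone replica 3. Levels are given as CPM, reads scaled to a library total of 1000000 region reads. Region lengths were not used here, so a high CPM describes the share of reads a region took and not a density of reads along it. All intervals on shares cover counting error alone.

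The members' share of region reads overlapped between pulldown and input. This share ran from 19.2% to 26.5% with a median of 25.0%, and the widest 95% Wilson interval of a single library spanned 0.999 percentage points. Within some replicas TOP2A and input differed by more, in either direction. They had 22.2% and 26.2% in mitoxantrone replica 2 without drug. With etoposide they had 19.2% and 23.8% in etoposide replica 3, and 26.0% and 23.1% in etoposide replica 4. The outer transition regions, though only 43, took 53.3% to 63.8% (median 61.2%), and the acrocentric inner regions took 4.92% to 8.66% (median 7.14%). Counted against region reads and reads in no named region together, the members held 1.31% to 2.07% (median 1.71%).

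**Figure D1:**
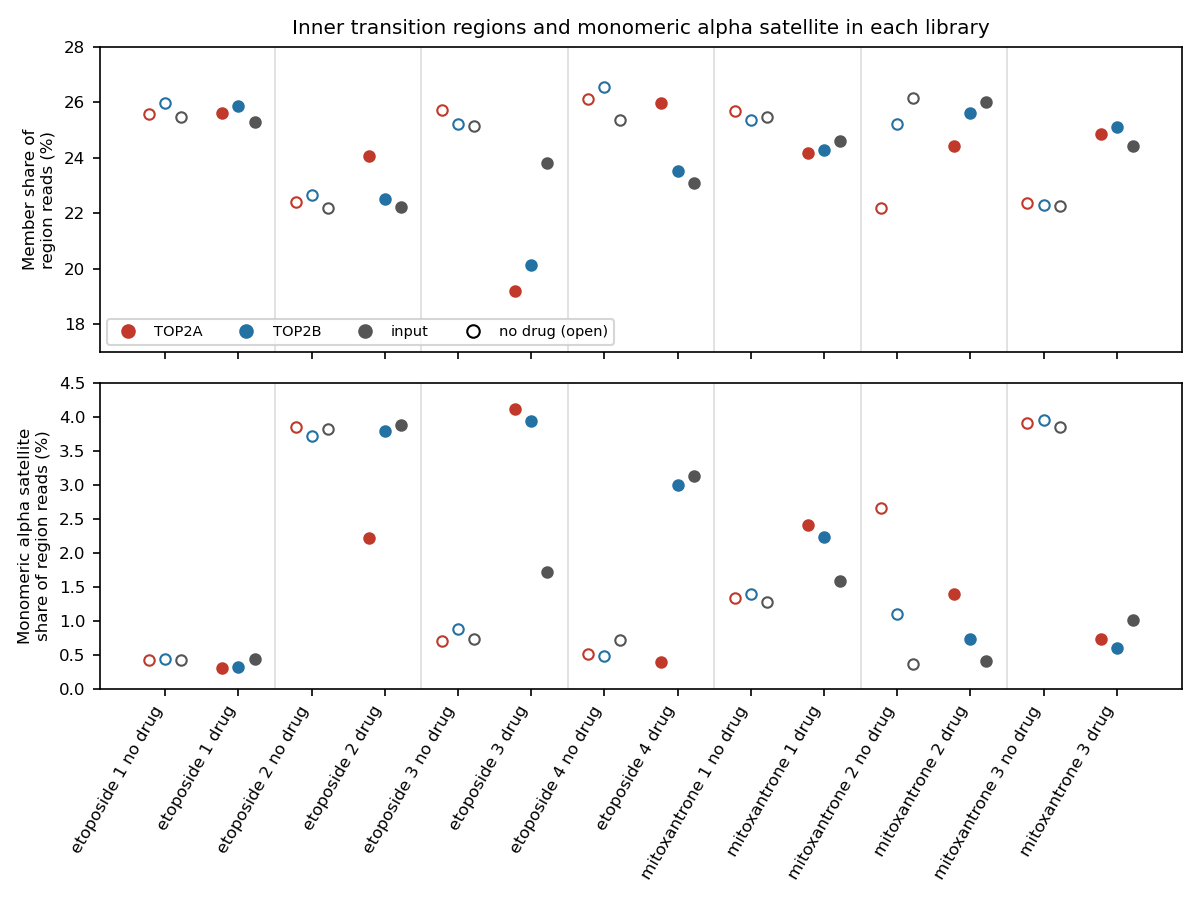
Share of region reads in the 436 members (top, percent) and in monomeric alpha satellite (bottom, percent) for each of the 42 libraries, by replica and treatment. Each point is 1 library, coloured by library kind, open without drug and filled with drug. The lowest member shares, 19.2% and 20.1%, are the pulldowns of etoposide replica 3 with etoposide, which have monomeric alpha satellite shares of 4.13% and 3.95%.

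The level of the share followed the replica and treatment more visibly than the library kind. Without drug, the 3 libraries of etoposide replica 2 stood at 22.4%, 22.7% and 22.2% and those of mitoxantrone replica 3 at 22.4%, 22.3% and 22.3%, for TOP2A, TOP2B and input in that order. These 6 libraries were also those without drug in which monomeric alpha satellite was most abundant, at 3.72% to 3.96% of region reads, against 0.303% to 4.13% over all libraries. TOP2A of mitoxantrone replica 2 without drug was also low, at a member share of 22.2% with 2.66% monomeric alpha satellite. The part of monomeric alpha satellite in the member share was not tested. In the etoposide series, TOP2A libraries averaged 25.0% ± 1.72 (SD, n = 4) without drug and 23.7% ± 3.11 (SD, n = 4) with etoposide, and input libraries averaged 24.6% ± 1.57 and 23.6% ± 1.30, in the same order. Within replicas, the member share with etoposide differed from that without by a mean of -0.08 in log2 in TOP2A (SD 0.23), -0.13 in TOP2B (SD 0.15, lower in 4 of 4 replicas) and -0.06 in input (SD 0.06). With mitoxantrone the mean log2 differences were 0.07 in TOP2A (SD 0.13), 0.04 in TOP2B (SD 0.12) and 0.02 in input (SD 0.10), over 3 replicas. In pulldown, no drug difference of the share was larger than its SD between replicas. No test is given for the summed share, since the members were set as a group with results of these data known.

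Reads were very unevenly spread over the members. Of the 436, 8 were listed at 0 in all 42 libraries (6 of them on chromosome 2), 201 had reads in every library, and 210 averaged at least 50 reads. The median member averaged 45.0 reads per library. Between 15 and 173 members were listed at 0 in a library (median 48.5), the fewest in the deepest library and the most in the least deep. In that least deep library a count of 0 allows up to 0.0653% of member reads, which is 3 reads.

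A group of 10 members held 46.6% to 60.0% of member reads in each library (median 52.6%). The member with the most reads was ct_20_36, the last inner region of chromosome 20 before the long arm. Its level ran from 11004 CPM in TOP2A with etoposide, replica 3, to 28144 CPM in input without drug of etoposide replica 4, with a median of 22102 CPM. Its neighbour ct_20_35 ranged from 8461 to 25207 CPM (median 18035). Both chromosome 20 regions were low in the same libraries, those of etoposide replica 2, of mitoxantrone replica 3 without drug, and the pulldowns of etoposide replica 3 with drug.

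Abundant members of other chromosomes followed. On chromosome 18, ct_18_3 ranged from 12678 to 25178 CPM (median 19770). On chromosome 8, ct_8_16 stayed between 14371 and 21802 CPM (median 18012), and on chromosome 12, ct_12_2 between 9993 and 17858 CPM (median 15176). The first is an inner region away from the arms, while the other two border an arm. The medians of ct_20_36, ct_18_3, ct_20_35 and ct_8_16 lie closer together than the range of any one of them. These regions share their libraries, so the ranges do not give their order within a library. The remaining 5 were ct_2_40 (3682 to 15825 CPM), ct_4_15 (5817 to 11041 CPM), ct_2_2 (4351 to 8850 CPM), ct_19_3 (4871 to 8786 CPM) and ct_7_2 (2218 to 7010 CPM). Among the 10, the widest range was that of ct_2_40 on chromosome 2, 4.30 times from its lowest to its highest library, and the narrowest that of ct_8_16, 1.52 times.

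**Figure D2:**
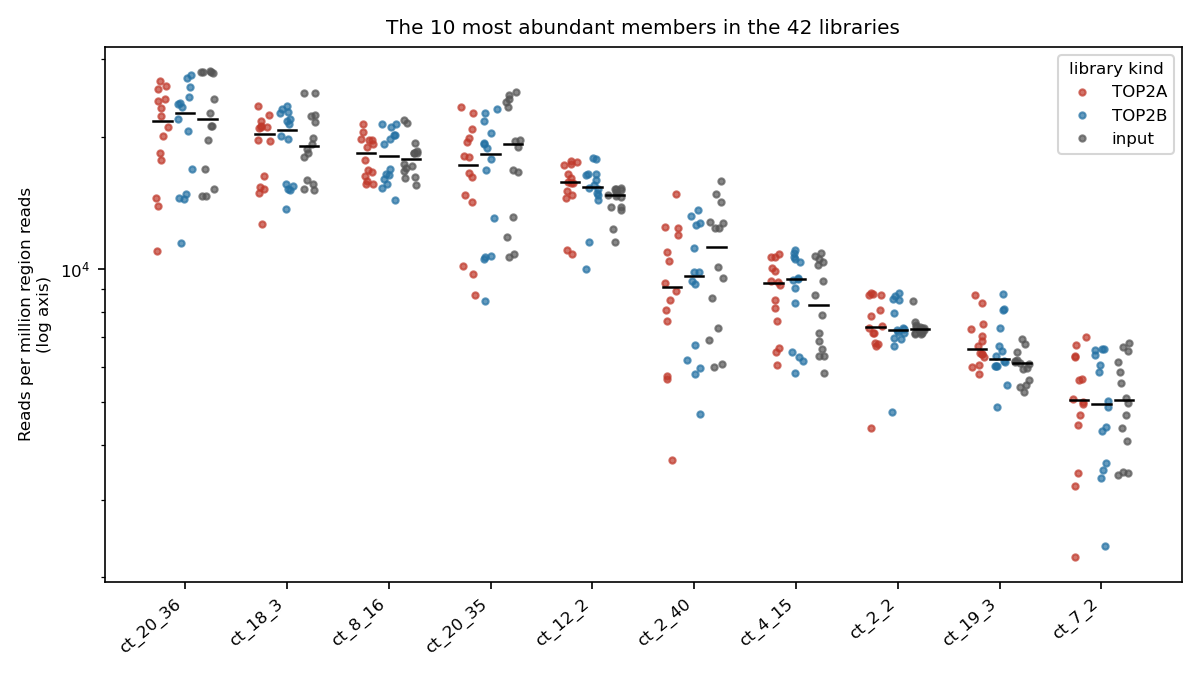
Level of the 10 most abundant members in CPM (log axis) for the 14 TOP2A, 14 TOP2B and 14 input libraries. Points are libraries and black lines are medians. The 3 library kinds overlap for each region, and ct_2_40 has the widest range, from 3682 to 15825 CPM.

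Position along the chromosome went with abundance. On each of the 17 chromosomes the names number the regions from the short arm to the long arm, so that the first and last inner region can be read from the name. These 34 regions next to the arms held 36.6% to 47.2% of member reads (median 43.3%), and 6 of the 10 most abundant members were among them. The last inner regions took more than the first, 25.3% against 17.4% in the median library. Region length may differ between the 2 kinds and was not used here.

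Chromosome 20 had the largest share of member reads and chromosome 5 the smallest. The 35 members of chromosome 20 took 12.7% to 23.0% (median 18.5%), although chromosomes 16, 9, 7, 19 and 2 each have more members. The next largest median shares were 11.4% for chromosome 2, 10.6% for chromosome 8, 9.46% for chromosome 19, 9.34% for chromosome 18 and 9.04% for chromosome 7. Chromosomes 1, 9 and 16, known for large blocks of human satellite 2 or 3, carry 158 of the members and together took 8.90% to 14.4% of member reads (median 11.4%). Their many members were mostly low: the 67 of chromosome 16 took a median of 3.41%. Chromosome 5 has 2 inner regions, ct_5_2 and ct_5_3. ct_5_2 was listed at 0 in 23 libraries and ct_5_3 in 8, and the pair took a median of 0.00448% of member reads.

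The balance between chromosomes shifted from one replica and treatment to another. Measured as the SD of the log2 share over the 42 libraries, the most variable was chromosome 5 (1.16, on few reads), followed by chromosome 11 (0.56), chromosome 6 (0.55) and chromosome 3 (0.52). The least variable was chromosome 7 (0.11). Chromosome 11 took 1.01% to 3.81% of member reads and chromosome 6 took 1.06% to 3.77%. Both were high in the libraries in which chromosome 20 was low. In etoposide replica 2 without drug, chromosome 11 took 3.14%, 3.13% and 2.99% in TOP2A, TOP2B and input, and chromosome 20 took 14.2%, 14.1% and 14.6%. In etoposide replica 1 with etoposide the same order gave 1.26%, 1.25% and 1.01% for chromosome 11 and 21.1%, 21.3% and 23.0% for chromosome 20. These sets do not overlap, and monomeric alpha satellite took 3.72% to 3.86% of region reads in the first and 0.303% to 0.442% in the second. Etoposide replica 1 was read at 38 bp and etoposide replica 2 at 50 bp, and the 2 sets also differ in drug. Replica, drug and read length cannot be told apart between these 2 sets. Without drug, etoposide replica 1 had 1.09% to 1.78% for chromosome 11 and 17.5% to 22.5% for chromosome 20. Etoposide replicas 3 and 4 without drug, read at 50 bp, had 1.07% to 1.70% and 18.6% to 22.9%. What sets these differences was not tested.

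**Figure D3:**
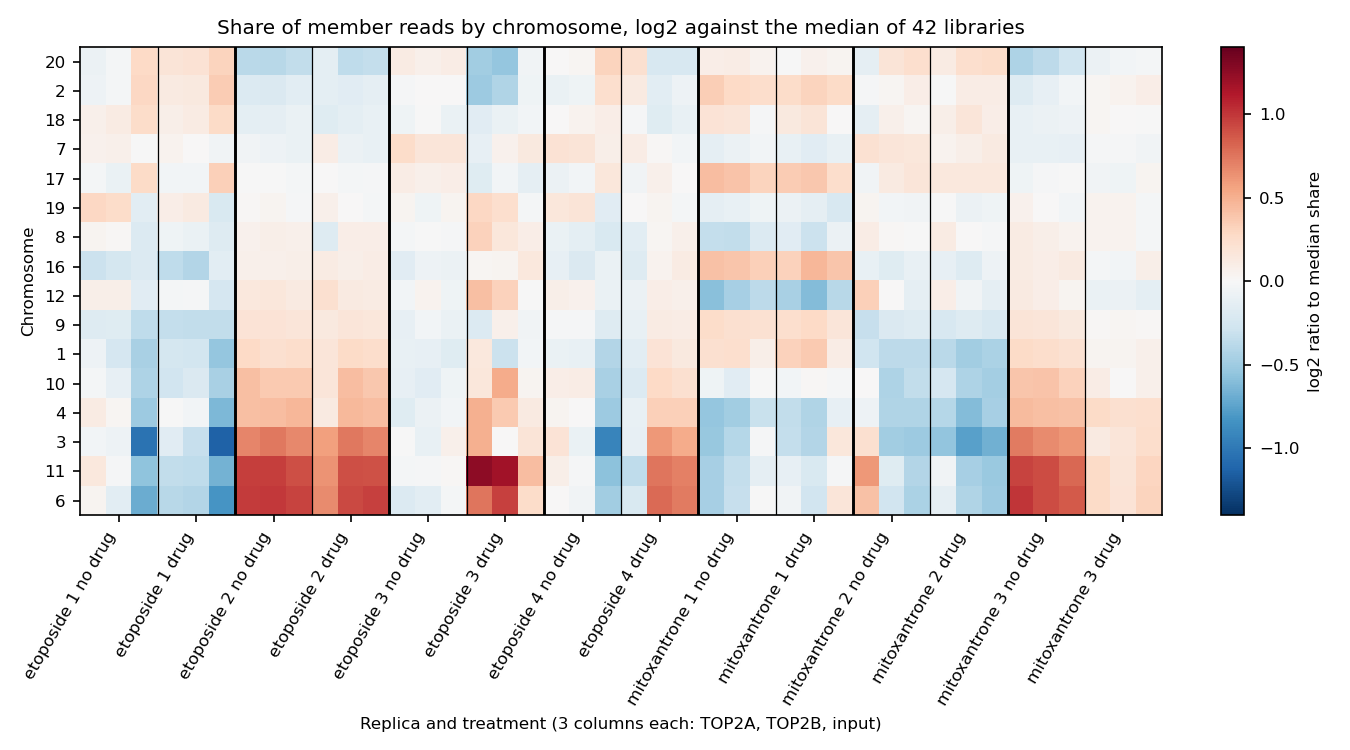
Share of member reads on each chromosome as log2 of its ratio to the median of the 42 libraries (colour scale), in 3 columns for TOP2A, TOP2B and input of each replica and treatment. Chromosome 5 is left out because its counts are too low. Colours change between blocks of 3 columns more than within them: chromosomes 6 and 11 are high and chromosome 20 low in etoposide replica 2, in mitoxantrone replica 3 without drug, in the pulldowns of etoposide replica 3 with drug, and in TOP2B and input of etoposide replica 4 with drug.

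For 16 of the 17 chromosomes, the 14 combinations of replica and treatment took 61.9% to 91.9% of the variance of the log2 share, where 31.7% would come from the number of combinations alone. For those chromosomes library kind took 0.50% to 7.22%, where 4.88% would come from the number of kinds alone. The exception was chromosome 19. There, replica and treatment took 40.2% and library kind took 24.9%.

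Chromosome 19 took a larger share of member reads in pulldown than in input in most replicas. Without drug, the log2 difference of its share between TOP2A and input was 0.44, 0.04, 0.00 and 0.31 in etoposide replicas 1 to 4 and -0.07, 0.09 and 0.10 in mitoxantrone replicas 1 to 3. It was above 0 in 6 of 7 replicas, with a mean of 0.13 (SD 0.18), and etoposide replicas 1 and 4 lay well above the rest. For TOP2B against input it was above 0 in 5 of 7 (mean 0.10, SD 0.19), with 0.40 and 0.34 in etoposide replicas 1 and 4. Both isoforms are set against the same input libraries, so the TOP2B values are no second measurement of a low or high input. With etoposide it was above 0 in 4 of 4 replicas for TOP2A (0.31, 0.10, 0.31 and 0.03) and for TOP2B (0.35, 0.03, 0.26 and 0.07). With mitoxantrone it was above 0 in 3 of 3 for TOP2A (mean 0.09, SD 0.04) and in 2 of 3 for TOP2B (mean 0.05, SD 0.06). In shares, input of etoposide replica 1 without drug gave chromosome 19 a share of 8.56% and its TOP2A and TOP2B pulldowns gave 11.6% and 11.3%. Other chromosomes also differed there, in both directions. TOP2A and input gave 4.06% and 2.64% for chromosome 4, 1.93% and 1.17% for chromosome 6, and 1.78% and 1.09% for chromosome 11. For chromosome 20 they gave 17.5% and 22.5%. The difference in this replica was thus not particular to chromosome 19. In etoposide replica 4 without drug, TOP2A and input gave 3.84% and 2.64% for chromosome 4 and 18.6% and 22.9% for chromosome 20. In etoposide replica 3 with etoposide they gave 3.81% and 2.17% for chromosome 11 and 13.2% and 17.9% for chromosome 20. The change of the chromosome 19 share with etoposide was smaller than its spread: the mean log2 change was -0.01 in TOP2A (SD 0.20) and -0.00 in TOP2B (SD 0.20).

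Between libraries, members had a lower typical spread than the satellite arrays, which was not tested. Over the 210 members with at least 50 reads on average, the median SD of log2 CPM was 0.45 (range 0.16 to 1.06). The same median was 0.50 for 77 acrocentric inner regions, 0.30 for 43 outer transition regions, 1.41 for 54 monomeric alpha satellite regions and 1.78 for 51 regions of human satellites 1 to 3. Members next to an arm had a median SD of 0.38 (25 members) and the others 0.46 (185 members). The steadiest were ct_7_3 (992 to 1472 CPM, SD 0.16), ct_8_16 (SD 0.17) and ct_16_60 (586 to 1137 CPM, SD 0.17). The most variable were ct_17_10 (13.1 to 227 CPM, SD 1.06), ct_18_7 (0 to 168 CPM, SD 0.95), ct_1_17 (0 to 166 CPM, SD 0.91), ct_2_39 (28.4 to 359 CPM, SD 0.87) and ct_9_13 (0 to 250 CPM, SD 0.87). Each of the 5 averaged under 100 reads per library, so counting error is part of their spread.

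The first question of the design was whether a drug changes the reads in a region. With edgeR's quasi-likelihood test and Benjamini-Hochberg adjustment over all regions tested, at a threshold of 0.05, etoposide changed 0 of 304 members tested for each library kind, and 0% of all 1068 regions tested were called in each. At an unadjusted p under 0.05 there were 3 members in TOP2A, 1 in TOP2B and 0 in input. These were 0.987%, 0.329% and 0% of members, against 0.655%, 0.749% and 0% of all regions. Mitoxantrone changed 0 of 337 members in each library kind, again with 0% of all 1416 regions called. Its unadjusted counts were 1 in TOP2A (0.353% of all regions), 0 in TOP2B (0.212%) and 0 in input (0.0706%). DESeq2 and voom with a replicate block also called 0 members and 0% of all regions in these 6 comparisons. At an unadjusted p under 0.05 DESeq2 had 0 to 2 members and voom 3 to 16. Shares of all regions at that level are given for the main edgeR fits alone. The unadjusted counts of other fits, here and below, cannot be read as particular to the members. Members outside these counts, 132 in the etoposide fit and 99 in the mitoxantrone fit, had too few reads to be tested.

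These comparisons bound changes only loosely. They used group means, so the replica number shared by drug and no-drug libraries was not used. The median member had a standard error of 0.42 in log2 for etoposide in TOP2A and 0.52 for mitoxantrone in TOP2A. The 95% interval of the log2 change, not adjusted for the number of regions, lay within 1 on either side of 0 for 136 of 304 members with etoposide in TOP2A (44.7%), 118 in TOP2B (38.8%) and 136 in input (44.7%). With mitoxantrone this held for 89 of 337 in TOP2A (26.4%), 100 in TOP2B (29.7%) and 116 in input (34.4%). For the others a change of 2-fold could be missed. The typical change was small: the median log2 change of members was -0.07, -0.14 and -0.03 with etoposide in TOP2A, TOP2B and input, against -0.05, 0.07 and 0.09 over all regions tested. With mitoxantrone the members' medians were 0.04, 0.05 and -0.01, against -0.05, 0.01 and -0.05. The sign of such medians depends on the scaling: with library sizes from all reads, the median of all regions moved by -0.14 to 0.13 over the 21 comparisons, and the members' median for etoposide in input became 0.09.

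The members with the smallest unadjusted p for a drug are given as values. In TOP2A with etoposide, ct_20_26 was lower in 4 of 4 replicas, by log2 values of -0.44, -0.52, -0.42 and -0.50, with a fitted log2 change of -0.47 (SE 0.18, edgeR adjusted p = 0.999, unadjusted p = 0.0162). ct_9_36 on chromosome 9 also lay lower in all 4 (-0.64, -0.41, -1.08 and -0.61; fitted -0.59, SE 0.24), as did ct_8_14 on chromosome 8 (-0.61, -0.86, -0.69 and -0.63; fitted -0.70, SE 0.30). The fitted SEs rest on group means and not on the differences within replicas, which for ct_20_26 had an SD of 0.05. Every replica pointed the same way for these 3, and none passed the adjusted threshold. They were picked for their small p among the members. In TOP2B with etoposide the smallest unadjusted p among well-read members was that of ct_9_47, with log2 values of -0.66, -0.18, -1.82 and -0.22 (fitted -0.67, SE 0.31). Its replicas differed widely in size. For mitoxantrone in TOP2A, ct_17_15 on chromosome 17 was the one member with an unadjusted p under 0.05 (0.0487). It was lower in 3 of 3 replicas, at -0.87, -1.06 and -1.19 (fitted fold 0.501, SE 0.47 in log2), on 5 to 56 reads with the drug. Next came ct_7_28 on chromosome 7, at 0.12, -3.55 and -1.12 (fitted -1.77, SE 0.89), and ct_20_21 on chromosome 20, at -0.20, -1.10 and -0.79 (fitted -0.63, SE 0.34). The replicas of ct_7_28 did not share a direction. With edgeR adjusted p-values of 0.996 for ct_9_47 and 0.998 for the other 3, none was called.

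The second question was whether the drug effect differed between pulldown and input, or between the 2 isoforms. edgeR, DESeq2 and voom each called 0 members and 0% of all regions in each of these 6 comparisons. Unadjusted edgeR counts of members for etoposide were 2 in TOP2A minus input, 0 in TOP2B minus input and 1 in TOP2A minus TOP2B. These were 0.658%, 0% and 0.329% of members, against 0.468%, 0% and 0.562% of all regions. All 3 were 0 for mitoxantrone (0%), as they were in DESeq2 and voom. For etoposide, DESeq2 had 1, 0 and 0 members at that level and voom had 33, 5 and 8, with no share of all regions to set beside them. The members ct_8_14 and ct_9_36 appeared again for TOP2A minus input with etoposide, with fitted log2 differences of -0.93 (SE 0.42) and -0.69 (SE 0.33), each below 0 in 4 of 4 replicas. These share the TOP2A libraries of the drug comparison above. Standard errors were wider here: the median member had 0.59 for etoposide and 0.73 for mitoxantrone in TOP2A minus input, and the 95% interval stayed within 1 of 0 for 52 of 304 members (17.1%) and 34 of 337 (10.1%). These fits used group means, so the pairing of library kinds within a replica and treatment was not used. A joint fit with a block for each replica and treatment was chosen after seeing the data. It called 0 members and 0% of all regions. Its members at an unadjusted p under 0.05 were 7, 0 and 4 for etoposide and 0 for mitoxantrone.

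The third question was where pulldown differs from input. It was fitted over all 42 libraries with a block for each replica and treatment, so libraries were compared inside the sets that the labels give as 1 replica and 1 treatment. This fit was the most precise, with a median standard error of 0.22 for TOP2A against input without drug. Not all sets behaved as matched. After removal of the group means, 36 of 42 pairs of libraries within a set correlated above 0.1 across 210 members (-0.412 to 0.941). With etoposide, TOP2A and input correlated at -0.41 in etoposide replica 4 and -0.03 in etoposide replica 3. Without drug, 0 of 336 members were called for TOP2A against input, while 1.02% of all 1372 regions were called (14, all lower in pulldown, 12 of them other satellites or ribosomal DNA). The log2 differences of 283 of the 336 members (84.2%) had a 95% interval within 1 of 0. At an unadjusted p under 0.05 there were 28 members, or 8.33%, against 11.4% of all regions. For TOP2B against input without drug, 0 members and 0% of regions were called. There 299 members (89.0%) had their interval within 1 of 0, and 10 had an unadjusted p under 0.05, or 2.98% against 6.27%. DESeq2 had 15 and voom 18, with 0 members and 0% of regions called by either.

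With etoposide, TOP2A against input again gave 0 of 336 members, while 3.06% of all regions were called (42, of which 26 were human satellites 1 to 3 and 9 were monomeric alpha satellite, all of those lower). The members' median log2 difference was -0.04, against -0.23 over all regions tested. Unadjusted p-values under 0.05 were found for 17 members, or 5.06% against 19.5% of regions. TOP2B against input with etoposide called 0 members and 0% of regions. At an unadjusted p under 0.05 there were 8 members, or 2.38% against 6.34% of regions. DESeq2 had 13 and voom 6 at that level. Neither called a member, though voom called 0.583% of all regions. With mitoxantrone, 0 members and 0% of regions were called for either isoform. There 5 members for TOP2A (1.49%, against 3.06% of regions) and 2 for TOP2B (0.595%, against 1.97% of regions) had an unadjusted p under 0.05. DESeq2 had 9 and 9 and voom had 4 and 2. The remaining comparison, TOP2A against TOP2B, called 0 members and 0% of regions in any treatment. Its unadjusted counts of members were 0 without drug, 10 with etoposide (2.98%) and 0 with mitoxantrone. The shares of all regions were 0.219%, 11.2% and 0.656%. DESeq2 had 1, 26 and 2 and voom had 10, 7 and 1, with 0 members and 0% of regions called. For these unadjusted counts too no share of all regions is given. Without drug 296 members (88.1%) had their interval within 1 of 0.

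**Figure D4:**
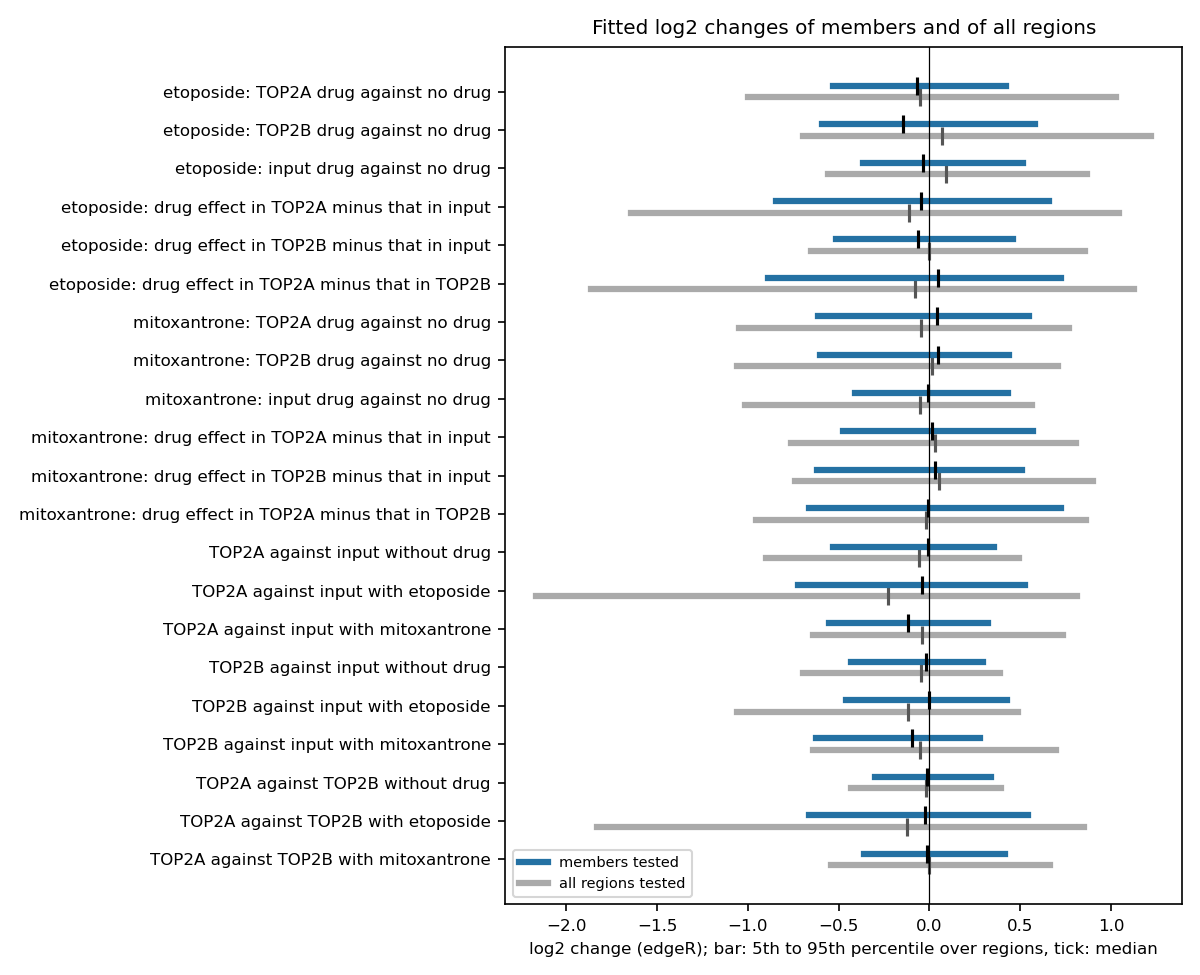
Fitted log2 changes in the 21 comparisons for the members tested (blue) and all regions tested (grey). Bars run from the 5th to the 95th percentile over regions and ticks mark the median. The member bar is the shorter one throughout, for instance -0.72 to 0.53 against -2.17 to 0.81 for TOP2A against input with etoposide.

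No member passed the threshold in edgeR, and those with the smallest unadjusted p are given as values. TOP2A and TOP2B of a replica and treatment are set against the same input library, so their values against input are not independent of each other. For TOP2B without drug the smallest p was that of ct_16_59 on chromosome 16. Without drug it had 639 to 1037 CPM in input (median 771, n = 7), 597 to 875 CPM in TOP2A (median 678) and 517 to 900 CPM in TOP2B (median 634), so the groups overlapped. Within replicas TOP2B lay below input in 7 of 7, by log2 values from -0.93 to -0.04, with a fitted difference of -0.44 (SE 0.13, adjusted p = 0.313). TOP2A lay below input in 6 of 7 (fitted -0.37, SE 0.14, adjusted p = 0.221). With etoposide, TOP2B was below input in 4 of 4 replicas, at -1.12, -0.03, -0.83 and -0.27 (fitted -0.60, SE 0.18, adjusted p = 0.624). TOP2A with etoposide was at -1.01, 0.26, -0.04 and -0.64, below input in 3 of 4 (fitted -0.46, SE 0.19, adjusted p = 0.156). With mitoxantrone ct_16_59 was below input in 3 of 3 for each isoform, with fitted differences of -0.23 for both.

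ct_17_16 on chromosome 17 and ct_2_37 on chromosome 2 were also among the members with small unadjusted p, again with input libraries shared by the isoforms. ct_17_16 varied widely, from 83.7 to 1084 CPM over all libraries. Its fitted log2 difference without drug was -0.61 for TOP2A (SE 0.20, below input in 6 of 7, adjusted p = 0.151) and -0.53 for TOP2B (SE 0.20, 5 of 7). With etoposide its TOP2B value was -0.78 (SE 0.28, 4 of 4). ct_2_37, a more abundant member with 1967 to 6414 CPM, had -0.36 for TOP2A without drug (SE 0.14, 6 of 7) and -0.44 for TOP2B with etoposide (SE 0.18, 4 of 4). For both, etoposide replica 1 gave one of the 2 lowest TOP2A values without drug, at -1.36 and -0.61. Of the 10 most abundant members, ct_20_35 and ct_2_40 had an unadjusted p under 0.05 for TOP2A against input without drug, with fitted differences of -0.38 (SE 0.16) and -0.41 (SE 0.17). Both were below input in 5 of 7 replicas and neither was called (adjusted p = 0.307 and 0.325).

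Of members with a mean of at least 50 reads, the 3 with the smallest p for a higher level in TOP2A than in input with etoposide lay on chromosome 19. ct_19_34 had 594, 619, 1088 and 635 CPM in TOP2A with etoposide, against 445, 472, 607 and 456 CPM in input of the same replicas. TOP2A was higher in each replica, but the highest input lay above the lowest TOP2A library, and the value of 1088 CPM rests on 26 reads. The fitted log2 difference was 0.49 (SE 0.16, edgeR adjusted p = 0.0774). ct_19_7 had 1379 to 1580 CPM in TOP2A and 956 to 1140 CPM in input, with no overlap over 4 replicas (fitted 0.42, SE 0.17, adjusted p = 0.160). ct_19_27 was higher in 3 of 4 replicas (0.48, 0.58, -0.42 and 1.18; fitted 0.59, SE 0.24, adjusted p = 0.156). Without drug the same fit, over the 7 replicas of both series, gave 0.09 for ct_19_34 and -0.04 for ct_19_7. The difference between the treatments was tested for all regions, in the comparison of drug effects in TOP2A and input above, and called none of them. That comparison used group means of the etoposide series alone, with a median standard error of 0.59. Differences of the size seen here could be missed there.

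DESeq2, unlike edgeR, called these 3 members higher in TOP2A than in input with etoposide, where it called 3.07% of all regions: ct_19_34 at 0.47 (SE 0.11, adjusted p = 0.0124), ct_19_27 at 0.66 (SE 0.19, adjusted p = 0.0323) and ct_19_7 at 0.47 (SE 0.13, adjusted p = 0.0339). voom called 0 members and 0% of all regions there, so its 0 is not particular to these members. The call thus depends on the method. Leaving out etoposide replica 3, whose TOP2A library was the least deep, edgeR called 3 members higher, while 8.74% of all regions were called. These were ct_19_27 (0.83, SE 0.23, adjusted p = 0.0252), ct_3_7 (1.36, SE 0.43, adjusted p = 0.0449) and ct_7_2 (0.55, SE 0.15, adjusted p = 0.0291). In the replica left out, ct_7_2 had gone the other way, at -1.19. ct_3_7, with a mean of 26.4 reads, was named after its values were seen.

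Across the 39 members of chromosome 19 tested for TOP2A against input with etoposide, 31 had a fitted difference above 0 and 8 below, with a median of 0.16. Over all 336 members tested, 154 were above 0 and 182 below, with a median of -0.04. Without drug, over the 7 replicas of both series, 22 of the 39 were above 0 (median 0.03). With mitoxantrone, over 3 replicas, 21 of 39 were (median 0.01). The etoposide count rests on 4 replicas, so these counts come from unlike sets of replicas. For TOP2B with etoposide the count was 26 of 39 (median 0.07), and the smallest p for a higher level there included ct_20_3 on chromosome 20, higher in 4 of 4 replicas (fitted 0.49, SE 0.24, adjusted p = 0.765). With library sizes from all reads, the TOP2A counts were 30 of 39 with etoposide (median 0.19) and 32 of 39 without drug (median 0.11). That scaling moves all regions together: the same counts over all 336 members tested went from 154 to 145 with etoposide and from 166 to 212 without drug. With library sizes from region reads, etoposide against no drug left 13 of 37 chromosome 19 members higher in TOP2A (median -0.07). In input it left 7 of 37 higher (median -0.20). Over all 304 members tested, 121 were higher in TOP2A and 141 in input. The drug effect in TOP2A minus that in input was above 0 for 26 of 37 (median 0.13). With library sizes from all reads that count was 16 of 37 (median -0.07). All these counts are descriptions, since regions of one library are not replicates.

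A single member, ct_8_4 on chromosome 8, was called lower in TOP2A than in input without drug by 2 methods. It was named here after its values were seen, as it averaged 41.0 reads. DESeq2 gave -0.76 (SE 0.21, adjusted p = 0.0295) with 1.38% of regions called, and voom gave -0.74 (SE 0.16, adjusted p = 0.00928) with 3.57% of regions called. edgeR gave -0.75 (SE 0.23, adjusted p = 0.122) and did not call it. Its levels without drug were 61.5 to 106 CPM in input (median 79.0) and 22.7 to 83.6 CPM in TOP2A (median 40.3), overlapping, and it was below input in 6 of 7 replicas. For TOP2B it was below input in 7 of 7 (edgeR -0.59, SE 0.22, adjusted p = 0.538). Its counts without drug were as low as 1 read in a TOP2A library.

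**Figure D5:**
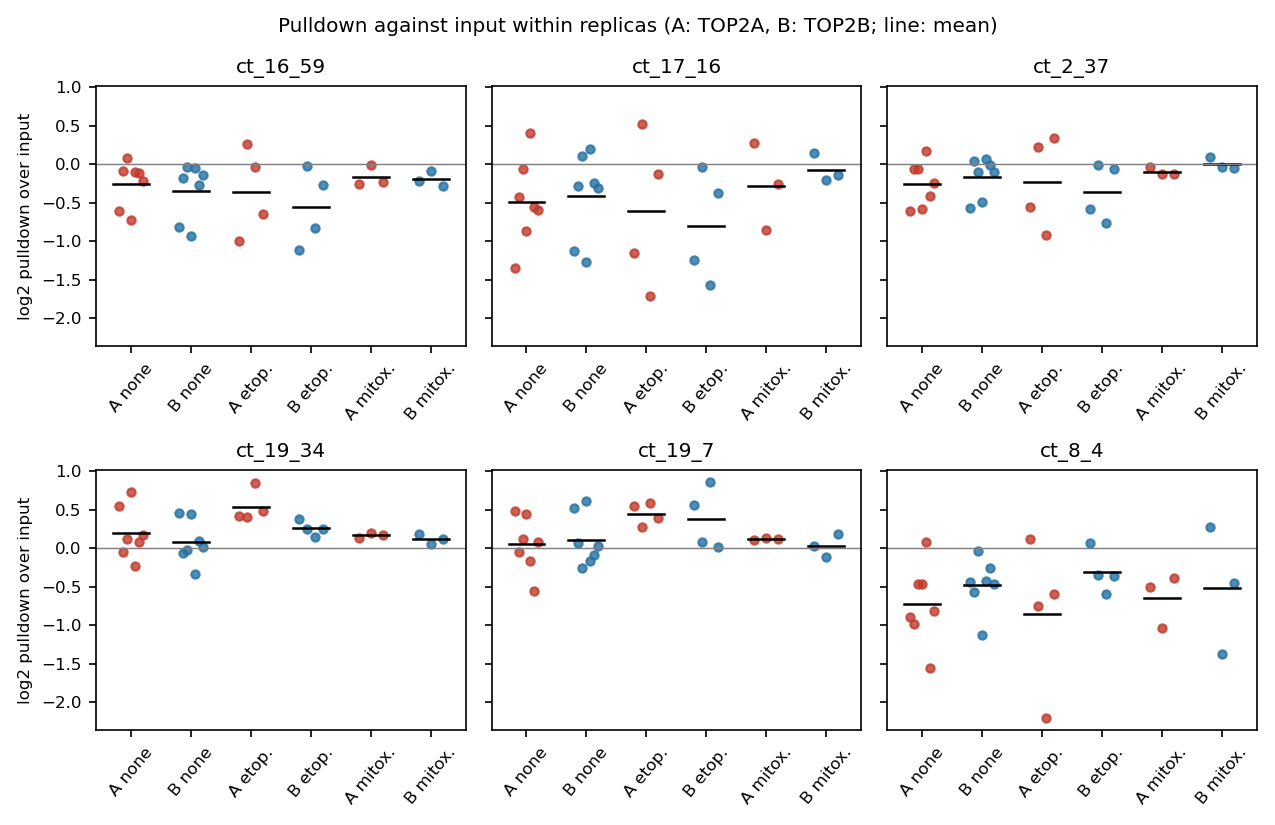
Log2 of pulldown over input within each replica (vertical axis) for 6 members, by isoform (A, TOP2A in red; B, TOP2B in blue) and treatment (none, etoposide, mitoxantrone). Points are replicas (7, 4 and 3) and lines their means. ct_16_59 and ct_8_4 lie mostly below 0, and ct_19_34 and ct_19_7 lie above 0 in each of the 4 replicas with etoposide.

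Other members with small unadjusted p-values are given as values, and edgeR called none of them. On chromosome 18, ct_18_4 had a fitted difference from input with mitoxantrone of -0.70 in TOP2A (SE 0.24, adjusted p = 0.763) and -0.68 in TOP2B (SE 0.24, adjusted p = 0.999), but its values in replica 3 were 0.00 and -0.07. Between the isoforms with etoposide, ct_19_35 was higher in TOP2A in 4 of 4 replicas, at 0.07, 0.25, 2.85 and 1.18 (fitted 0.80, SE 0.26, adjusted p = 0.259). ct_9_22 was likewise higher in 4 of 4 (fitted 0.84, SE 0.32), and ct_9_32 was lower in 4 of 4, at -0.09, -0.30, -1.90 and -1.39 (fitted -0.73, SE 0.23, adjusted p = 0.237). For ct_19_35 and ct_9_32 the widest values came from replicas 3 and 4.

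Beside the members, 188 acrocentric inner regions and the 43 outer transition regions were tested in the same fit. Their median log2 differences for TOP2A against input without drug were 0.02 and -0.04, against -0.01 for the members. With etoposide they were -0.00 and -0.02, against -0.04. Calls among them were 0 and 1 without drug and 0 and 0 with etoposide. No difference between the members and either class was tested.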

How the data were processed

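The values used were the deposited read counts of 2523 regions in 42 libraries. Per the submitters' processing notes, the authors used Trimmomatic 0.36 for trimming, BWA 0.7.17 for alignment, the telomere-to-telomere CHM13 assembly as reference, and HTSeq (version given as 2.7.13) for the counts. The mapping quality minimum is not given in the sources used here; reads with several equally good places may be missing from repeated regions. The 5 tally rows that name no region were kept out of library sizes and tests.

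Counts were tested with edgeR 4.0.16 (TMM, filterByExpr with a minimum count of 10) in R 4.3.3, over all regions that passed the filter: 1068 in the etoposide fit, 1416 in the mitoxantrone fit (12 comparisons, group means) and 1372 in the joint fit (9 comparisons, 14 blocks of replica and treatment). Tests were two-sided. Alternatives were DESeq2 1.42.0, voom in limma 3.58.1 with a replicate block, other blocks, library sizes, filters and leaving out each replica. The scripts were tested on simulated data with a fixed spread and no replica effect, which checks the code and not the power in these libraries. Log2 values within replicas used a prior of 0.5 reads.

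Regions were named by rule: the 10 of highest mean CPM, the 5 most and 3 least variable with a mean of at least 50 reads, and, in a comparison with no member called, up to 3 at each end by smallest unadjusted p with that mean in the libraries fitted; chromosomes were named at the ends of each summary. Members, lists and rules were chosen with earlier results of these data known. In 54 pairs of libraries of one group, 0 had identical counts. Region coordinates and sequences were not used here.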

Additional observations from a re-analysis of the deposited data

Results flagged for a closer look

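Among 168 groups of 4 libraries examined, 18 held 1 library whose gap to the others was large for the group's range; chance alone gives about 1 in 20 groups, and the groups share libraries and are not independent.

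Most came from etoposide replica 2 without drug. Its member share was 22.4% in TOP2A (the other 3 libraries, 25.6% to 26.1%) and 22.2% in input (25.1% to 25.5%). Chromosome 1 took 2.06% of its TOP2A member reads (others 1.59% to 1.62%) and chromosome 3 took 0.615% in TOP2B (others 0.344% to 0.352%). Chromosome 6 took 3.70% in TOP2A (others 1.65% to 1.93%) and 3.73% in TOP2B (others 1.70% to 1.82%). Chromosome 11 took 3.14% in TOP2A (others 1.57% to 1.78%) and 3.13% in TOP2B (others 1.58%). In TOP2B, ct_20_36 had 14423 CPM (others 23719 to 24595), ct_20_35 had 10560 CPM (others 17783 to 19255) and ct_2_40 had 5783 CPM (others 9419 to 9867).

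The others came mainly from etoposide replica 1 with etoposide, read at 38 bp where the other etoposide replicas had 50 bp. In its input, chromosome 2 took 14.6% (others 10.4% to 10.9%), chromosome 8 took 9.38% (others 11.1% to 11.3%), chromosome 16 took 3.07% (others 3.66% to 3.78%), chromosome 18 took 11.3% (others 8.67% to 9.07%) and chromosome 19 took 8.14% (others 9.26% to 9.29%). In its TOP2B library chromosome 16 took 2.57% (others 3.52% to 3.62%). In etoposide replica 4 with etoposide, chromosome 17 took 3.65% of TOP2B member reads (others 3.39% to 3.41%).

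In 2 of 84 comparisons of the drugs, every replica moved one way with etoposide and the other way with mitoxantrone. The abundant chromosome 8 member ct_8_16 had a mean log2 change in TOP2A of -0.10 with etoposide and 0.16 with mitoxantrone, a difference of -0.26. The chromosome 18 share in TOP2B had -0.08 and 0.06, a difference of -0.14. Neither difference was tested.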

How the results depend on the processing

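With no member called by edgeR in any of the 21 comparisons, the count of members called stayed at 0 under library sizes from all reads, with no filter on low counts, and under each alternative block. It differed in 2 comparisons. For TOP2A against input without drug, DESeq2 called 1 member and voom called 1. For TOP2A against input with etoposide, DESeq2 called 3 and leaving out 1 replica gave 0 to 3, with 3 without etoposide replica 3. The same replica number in drug and no-drug libraries did not pair all of them: after removal of the group means, 17 of 21 pairs correlated above 0.1 across 210 members (-0.636 to 0.931), and 14 had their highest value with their own number. With the replicate block of that number, 0 members were called in each of the 12 drug comparisons; without the block of replica and treatment, 0 were called in the other 9. A joint fit with that block for the 6 comparisons of drug effects, chosen after seeing the data, also called 0. When 1 replica was left out, 3 named log2 changes turned direction: ct_20_11 (etoposide in TOP2B minus input; -0.62 to 0.0176, the latter without replica 3), ct_16_52 (mitoxantrone in TOP2A minus input; -1.03 to 0.0138, without replica 2) and ct_8_3 (TOP2B against input with mitoxantrone; -1.07 to 0.0218, without replica 1). The median member share became 1.71% when reads in no named region were added to the total. With the most abundant member of every chromosome left out, chromosome 7 took a median of 14.3% of the remaining member reads. Counting members with at least 10 reads, chosen after seeing the data, gave a median of 286.5 per library in place of 387.5. The cause of these shifts was not tested beyond their construction. Depth limits the tests: 100 members could not be tested in the joint fit, and the median half-width of a member's 95% interval ranged from 0.43 to 1.56 in log2 over the 21 comparisons.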
